A study of Mus musculus with 2 samples.

Results

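Glucose metabolism genes were described across a Prox1 conditional knockout liver and a wild-type liver. The set holds 43 named genes of glucose transport, glycolysis, gluconeogenesis and glycogen, with liver isozymes and isozymes of other tissues side by side, out of 18194 genes that the array annotation covers. Members were picked by name, through every probe set that the platform annotation assigns to exactly 1 gene. Of the 43 genes, 40 had such a probe set, 82 probe sets in all, and 39 gave a signal above the detection floor on at least 1 array. Gpi1, Eno1 and Pfkfb1 had none and were not analysed here, and Pck1 stayed below the floor on both arrays.

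RNA of liver was taken at E14.5, a day of embryonic development, from Prox1 f/f;Foxa3Cre mice and from wild-type mice, both of the strain NMRI/C57Bl6, and each genotype was measured on 1 array. In the knockout, Cre recombinase expressed under Foxa3, a gene of gut and liver endoderm, removes a floxed Prox1, a homeodomain transcription factor gene of hepatoblasts. The labels name no Cre or floxed allele in the wild type, and do not say how many embryos a sample holds. With 1 array per genotype there was no replicate, so no SD, no standard error and no test between genotypes, and every difference below is between these particular samples.

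Liver both burns glucose and makes it. Glycolysis splits glucose to pyruvate, gluconeogenesis rebuilds glucose from lactate and amino acids through a few bypass enzymes, and glycogen is the store in between. Adult hepatocytes use isozymes of their own for many of these steps, such as the transporter GLUT2, liver pyruvate kinase and liver glycogen synthase, while most other cells use widely expressed, muscle or brain forms. Fetal liver holds hepatoblasts among a large population of blood-forming cells, together with endothelium and mesenchyme, so all of these contribute RNA. In such a bulk sample, fewer cells of a type and less RNA per cell cannot be told apart.

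The values are MAS5 signals, in arbitrary linear units. The floor was 112.6, the higher of the array medians (112.6 in the knockout and 101.1 in wild type), and lower signals were raised to it before log2 differences, knockout minus wild type, were taken. A gene below the floor on 1 array therefore has only a bound, written "at least". Each gene is given by its brightest probe set, and its other probe sets are given where they add to it. Prox1 read 221.8 in the knockout and 340.3 in wild type, 1.53-fold lower. Its other probe sets read 111.8 and 66.7 in the knockout, both below the floor. In wild type they read 205.9 and 175.4, so they were at least 1.83-fold and 1.56-fold lower. The sex-linked RNA Xist read 365.7 in the knockout and 11467 in wild type, and the Y-linked gene Eif2s3y read 1972 in the knockout and 0.87 in wild type, so the samples differed in sex as well, and sex and genotype cannot be told apart. Alb and Afp, which define hepatoblasts, read 33186 and 35212 in the knockout and 32396 and 36369 in wild type, near the top of the scale.

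Enzyme forms known from other tissues were mostly higher in the knockout liver and liver forms mostly lower, with Aldoc as an exception. Lactate dehydrogenase B (Ldhb) was 6.09-fold higher in the knockout, platelet-type phosphofructokinase (Pfkp) 3.13-fold, muscle fructose-bisphosphatase (Fbp2) at least 2.86-fold and the bifunctional enzyme Pfkfb4 2.25-fold. The liver regulatory protein gene Gckr was at least 8.41-fold lower, liver fructose-bisphosphatase (Fbp1) 2.57-fold and brain aldolase (Aldoc) 2.21-fold. These 7 genes were 17.9% of the 39 measured members, 4 of them higher and 3 lower by 2-fold or more. Over all 11398 measured genes, 5.40% were at least 2-fold apart, 3.27% higher and 2.13% lower. The median log2 difference was 0.14 over the members and 0.03 over all measured genes, with 25 members above 0 and 14 below, so the set as a whole was hardly shifted and its members differed in both directions.

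**Figure D1:**
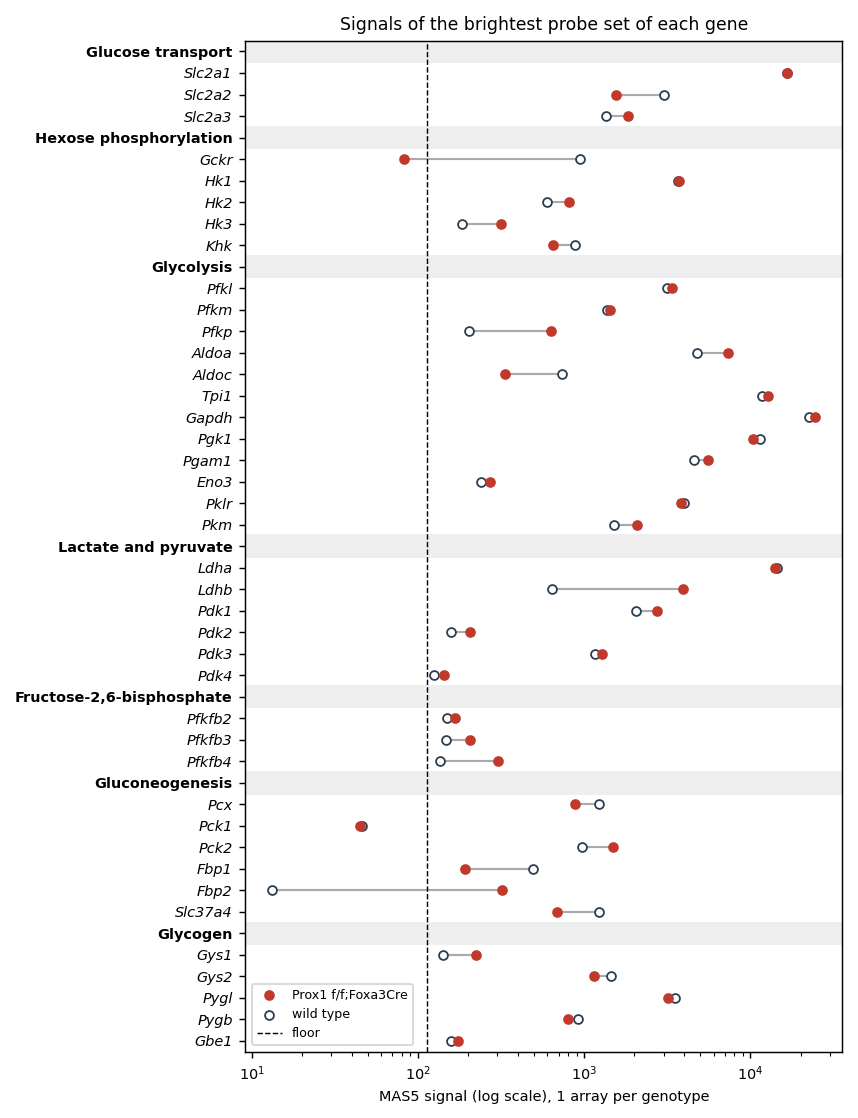
Signal of the brightest probe set of each member on a log axis, 1 row per gene, grouped by role, with a filled point for the knockout array and an open point for the wild-type array. The dashed line is the floor of 112.6. Gckr and Fbp2 cross the floor in opposite directions, Ldhb and Pfkp lie far to the right in the knockout, and Slc2a1, Hk1, Ldha and Pklr have points that nearly coincide. Pck1 lies below the floor on both arrays.

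The upstream sequences of 5 of these genes are shown because they stand at the far ends of the set and each has a single RefSeq start site. Each line gives the 250 bases before the start, 5′ to 3′ on the gene's strand, in build GRCm38.p6. Capitals mark matches on either strand to 4 short elements, none of which overlapped another. The first is TATAAA, known as the TATA box. The second is CCAAT, read by the factor NF-Y. The third is GGGCGG, the so-called GC box read by Sp1-type factors. The last is CACGTG, an E-box, the core read by factors such as Myc and USF.
Gckr (chr5:31297313-31297562, plus strand): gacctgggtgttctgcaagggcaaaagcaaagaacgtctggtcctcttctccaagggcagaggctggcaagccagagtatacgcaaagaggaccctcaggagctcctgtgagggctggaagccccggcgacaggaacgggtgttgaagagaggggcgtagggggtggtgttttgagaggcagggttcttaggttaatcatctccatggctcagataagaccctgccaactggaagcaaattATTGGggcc
Fbp1 (chr13:62888283-62888532, minus strand): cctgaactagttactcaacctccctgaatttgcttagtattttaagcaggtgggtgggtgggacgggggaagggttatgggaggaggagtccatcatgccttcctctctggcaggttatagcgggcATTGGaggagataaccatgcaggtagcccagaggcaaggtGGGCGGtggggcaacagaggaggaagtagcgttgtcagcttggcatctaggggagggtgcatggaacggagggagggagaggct
Ldhb (chr6:142507958-142508207, minus strand): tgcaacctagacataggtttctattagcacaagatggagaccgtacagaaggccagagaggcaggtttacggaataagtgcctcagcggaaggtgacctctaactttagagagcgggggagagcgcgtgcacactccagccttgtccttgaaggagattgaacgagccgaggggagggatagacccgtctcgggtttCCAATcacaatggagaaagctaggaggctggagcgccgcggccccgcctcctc
Pfkp (chr13:6648772-6649021, minus strand): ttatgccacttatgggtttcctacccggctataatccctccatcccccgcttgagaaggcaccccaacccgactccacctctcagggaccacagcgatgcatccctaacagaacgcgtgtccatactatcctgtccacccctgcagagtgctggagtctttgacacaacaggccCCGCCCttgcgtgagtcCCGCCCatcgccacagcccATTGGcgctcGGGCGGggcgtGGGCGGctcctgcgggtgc
Fbp2 (chr13:62858401-62858650, minus strand): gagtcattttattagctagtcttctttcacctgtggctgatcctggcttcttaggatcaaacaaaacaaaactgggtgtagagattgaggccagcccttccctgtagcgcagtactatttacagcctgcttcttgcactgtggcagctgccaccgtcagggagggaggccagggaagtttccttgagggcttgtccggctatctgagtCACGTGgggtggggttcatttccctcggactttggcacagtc
Gckr, Fbp1, Ldhb and Pfkp each held 1 CCAAT box, an element present in 33.8% of all 32851 RefSeq windows of this length. GC boxes, typical of widely expressed genes and present in 32.7% of windows, numbered 4 in Pfkp and 1 in Fbp1, and no match was found in the windows of Gckr, Ldhb and Fbp2. The only E-box among the 5 was in Fbp2, against 6.02% of all windows, and none of the 5 matched the TATA box, which 12.4% of windows held. RefSeq windows were found for 41 of the 43 members. These matches describe letters and not binding.

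Among glucose transporters, GLUT2 (Slc2a2), the low-affinity hepatocyte transporter, was lower in the knockout. It read 1557 in the knockout and 3037 in wild type, 1.95-fold lower and just short of the 2-fold mark, on its 1 probe set. Among genes with a mean signal between 1000 and 5000, the middle 95% of log2 differences ran from -0.70 to 0.75, and Slc2a2, at -0.96, lay outside it. GLUT1 (Slc2a1), the transporter of erythroid cells and most other cells, read 16467 in the knockout and 16601 in wild type, and its 3 probe sets differed by -0.09 to -0.01 on the log2 scale. GLUT3 (Slc2a3), a high-affinity transporter of neurons and leukocytes, was 1.35-fold higher at 1834 in the knockout and 1361 in wild type, while its other probe sets above the floor had log2 differences of 0.22 and -0.08. The log2 difference of Slc2a2 was thus 0.95 below that of Slc2a1 and 1.40 below that of Slc2a3.

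Of the genes that phosphorylate hexoses or control that step, Gckr stood apart. Its product is a regulatory protein of the hepatocyte nucleus that restrains glucose phosphorylation when glucose is scarce. Gckr read 82.2 in the knockout, below the floor, and 947.4 in wild type, where it was well above it. Ketohexokinase (Khk), the first enzyme of fructose use in liver, was 1.35-fold lower at 651.0 in the knockout and 878.5 in wild type. The low-Km hexokinases were higher or level. Hk1, the form of red cells and brain, read 3706 in the knockout and 3674 in wild type. Hk2, of muscle and growing cells, read 806.2 in the knockout and 600.3 in wild type, 1.34-fold higher. Hk3, a form of granulocytes and macrophages, read 316.5 in the knockout and 184.0 in wild type, 1.72-fold higher, and 1.29-fold higher on its second probe set. Genes of the cells in which Hk3 is known were also higher: all 10 granulocyte markers were above 0 with a median of 1.01, and their summed signal was 74812 in the knockout and 35949 in wild type. Of 8 macrophage markers, 6 were above 0, with summed signals of 11001 in the knockout and 7703 in wild type. Their part in the Hk3 difference was not tested.

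Most measured enzymes at the core of glycolysis were close on both arrays, apart from phosphofructokinase and aldolase isozymes. Phosphofructokinase commits fructose-6-phosphate to glycolysis and is built from liver (Pfkl), muscle (Pfkm) and platelet (Pfkp) subunits. Pfkl read 3364 in the knockout and 3139 in wild type, and Pfkm read 1438 in the knockout and 1379 in wild type. Pfkp read 633.9 in the knockout and 202.7 in wild type, a log2 difference of 1.64. Its second measured probe set gave 1.76, and the remaining one stayed below the floor on both arrays, at 100.1 in the knockout and 12.0 in wild type. Pfkp was the only phosphofructokinase subunit gene outside the middle 95% of genes of like signal.

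Aldolase cleaves fructose-1,6-bisphosphate. Aldoa, the muscle and red cell form, was 1.54-fold higher, at 7356 in the knockout and 4785 in wild type, and all 5 of its probe sets were higher, by 0.11 to 0.81 on the log2 scale. All of these are of the kind marked _x_at, whose probes can also bind related transcripts. Aldoc, the brain form, moved the opposite way, at 332.4 in the knockout and 735.3 in wild type. A second Aldoc probe set read 18.9 in the knockout and 8.40 in wild type, below the floor, so the lower value of Aldoc rests on 1 probe set.

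Most measured steps from triose phosphate to pyruvate differed little, with Eno1 not measured and Pgk1 probe sets in disagreement. Triosephosphate isomerase (Tpi1) read 12810 in the knockout and 11768 in wild type. Gapdh, glyceraldehyde-3-phosphate dehydrogenase, was covered by control probe sets of the array, of which the brightest read 24525 in the knockout and 22362 in wild type, with log2 differences of 0.11 to 0.15 over 3 probe sets. Probe sets that Gapdh shares with other annotated sequences gave 0.16, 0.02 and 0.03. Phosphoglycerate mutase (Pgam1) was 1.21-fold higher, at 5545 in the knockout and 4564 in wild type. The muscle enolase Eno3 was dim, at 271.7 in the knockout and 240.8 in wild type. Phosphoglycerate kinase (Pgk1) had probe sets that disagreed, with log2 differences of -0.15, 0.14 and 0.95. The last read 5175 in the knockout and 2678 in wild type. Pgk1 and Pdk3 are the 2 measured members on the X chromosome, and the part of sex in their values was not tested.

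Pyruvate kinase, the last step, was described by 2 genes. Pklr, the liver and red cell form, read 3807 in the knockout and 3955 in wild type, and all 3 probe sets were slightly lower, by -0.22 to -0.05 on the log2 scale. Pkm, the form of muscle, embryo and most other cells, was 1.38-fold higher at 2077 in the knockout and 1509 in wild type, on 1 probe set that is not resolved into the M1 and M2 splice forms. The contrast between the pair was 0.52 on the log2 scale.

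**Figure D2:**
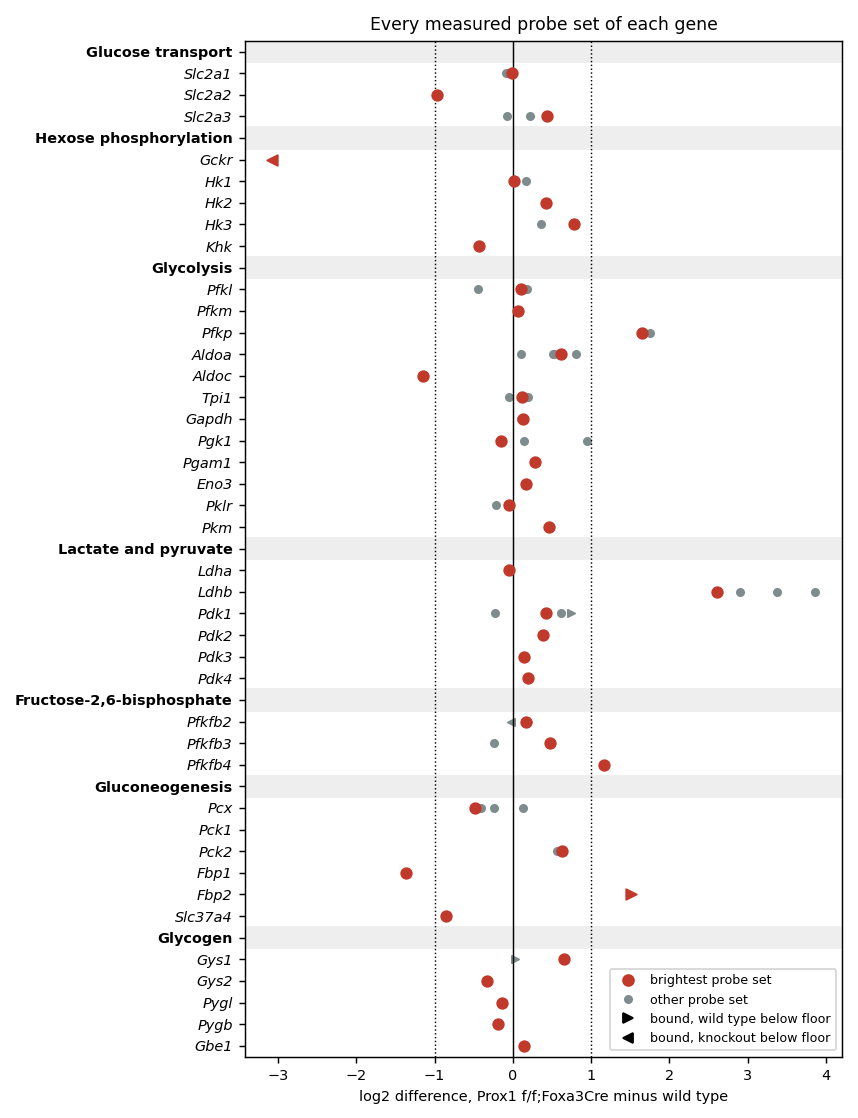
The log2 difference, knockout minus wild type, of every measured probe set of each member, with larger points for the brightest probe set, triangles for bounds and dotted lines at 2-fold. All 4 Ldhb probe sets lie between 2.61 and 3.87 and both Pfkp probe sets at 1.64 or more, while the probe sets of Pgk1, Pdk1 and Pfkl spread across 0.

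Lactate dehydrogenase B had the highest log2 difference among members above the floor on both arrays. Lactate dehydrogenase is a tetramer of A subunits, common in liver and skeletal muscle, and B subunits, common in heart. The 4 Ldhb probe sets read 3920, 4290, 3153 and 3706 in the knockout, against 643.3, 412.5, 420.5 and 254.4 in wild type in the same order. No knockout reading came near a wild-type one, and the fold was between 6.09, on the brightest probe set, and 14.6. All 4 carry the suffix _a_at or _x_at, given to probe sets that can read several transcripts of a gene or related sequences. Ldha, by contrast, read 14009 in the knockout and 14461 in wild type, so the log2 difference of Ldhb exceeded that of Ldha by 2.65. In the RefSeq gene order of GRCm38.p6, Ldhb lies on chromosome 6 between the member Gys2 and the genes Kcnj8 and Abcc9, a potassium channel and its sulfonylurea receptor partner known from pericytes and smooth muscle. These neighbours, looked up after the value of Ldhb was seen, lay on different sides of 0. Abcc9 was 2.23-fold higher, at 1266 in the knockout and 568.4 in wild type, with its other probe sets at 1.17 and 1.46. Kcnj8 was at least 2.01-fold higher, at 225.9 in the knockout and 74.5 in wild type. Gys2 was lower and the next gene beyond Abcc9, Cmas, had a log2 difference of -0.06.

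Most mesenchymal markers were higher as well, while over all measured genes 53.8% lay above 0 and 3.27% were at least 2-fold higher. All 12 mesenchymal markers were measured, 11 lay above 0 and 7 of them past 2-fold, in a range of -0.02 to 1.99, and their summed signal was 24317 in the knockout and 10982 in wild type. Their part in the values of Ldhb, Pfkp and the neighbours of Ldhb was not tested. Muscle markers were also examined, since several of the higher forms are known from muscle. Only 5 of 10 were above the floor, their summed signal was 950.5 in the knockout and 1016 in wild type, and Myh6, Myh7, Tnnt2, Myog and Ckm were below the floor on both arrays.

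**Figure D3:**
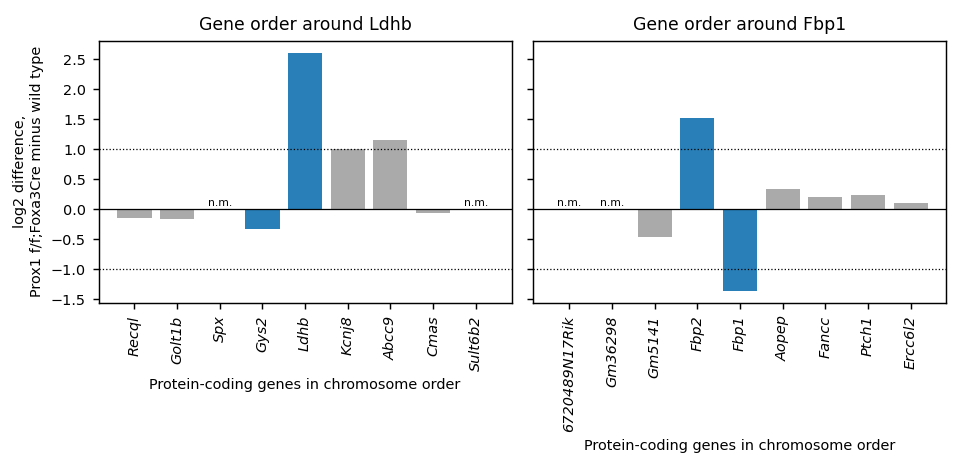
The log2 difference, knockout minus wild type, of protein-coding genes in chromosome order around Ldhb (chromosome 6, left) and around Fbp1 (chromosome 13, right), with members in blue and n.m. for genes not measured. Bars of Fbp2, Kcnj8 and Gm5141 are bounds, and Ldhb and Fbp2 each stand beside a member gene with a negative bar.

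Pyruvate dehydrogenase kinases switch off the entry of pyruvate into the mitochondrial citric acid cycle. All 4 lay above 0 and none reached 2-fold. Pdk1, a target of hypoxia-inducible factor, was 1.34-fold higher at 2741 in the knockout and 2045 in wild type, but its other probe sets had log2 differences of 0.62, -0.23 and at least 0.75, the last below the floor in wild type. Pdk2 read 205.5 in the knockout and 157.9 in wild type, 1.30-fold higher. Pdk3 read 1281 in the knockout and 1162 in wild type. Pdk4, the form induced by fasting, was close to the floor, at 143.1 in the knockout and 125.1 in wild type.

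The bifunctional enzymes encoded by the Pfkfb genes make and remove fructose-2,6-bisphosphate, which drives phosphofructokinase and restrains fructose-bisphosphatase. Pfkfb4, known as a form of testis and hypoxic cells, read 302.8 in the knockout and 134.7 in wild type. Pfkfb3, a form that favours synthesis and glycolysis, was 1.39-fold higher at 205.6 in the knockout and 147.7 in wild type, and its second probe set was lower by a log2 difference of -0.24. Pfkfb2, the heart form, read 167.6 in the knockout and 149.1 in wild type. All 3 were dim. Among genes with a mean signal below 250, the middle 95% of log2 differences ran from -0.79 to 1.10 and their median was 0.12, and Pfkfb4 at 1.17 lay just beyond that range.

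Gluconeogenesis had members in both directions. Pyruvate carboxylase (Pcx), which starts the pathway in mitochondria, was 1.40-fold lower, at 880.4 in the knockout and 1230 in wild type. Of 5 Pcx probe sets 4 were lower, and the exception was the control probe set at the 5′ end, with a log2 difference of 0.12. The ratio of 3′ to 5′ control signal of Pcx was 2.19 in the knockout and 3.17 in wild type, so the size of this difference varied along the transcript. Cytosolic phosphoenolpyruvate carboxykinase (Pck1), the regulated step of adult liver, had its brightest probe set at 44.9 in the knockout and 46.1 in wild type. The mitochondrial form, Pck2, was 1.54-fold higher at 1496 in the knockout and 969.6 in wild type, and 1.47-fold higher on its other probe set.

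Fructose-1,6-bisphosphatase is the bypass of phosphofructokinase. Fbp1, the liver and kidney form, read 191.6 in the knockout and 492.5 in wild type. Fbp2, the muscle form, read 321.5 in the knockout and 13.3 in wild type, where it was far below the floor. The genes are next to each other on chromosome 13 and are read from the same strand, and they differed in opposite directions on these arrays, by at least 2.88 on the log2 scale between them. Of the genes on either side, Aopep was at 0.33, and Gm5141 read 69.7 in the knockout, below the floor, and 155.6 in wild type, which gives only a bound of -0.47 or lower. Each fructose-bisphosphatase gene rests on 1 probe set. Fbp1 is also a kidney enzyme, and of 9 kidney and gut markers 4 were above the floor, with summed signals of 4588 in the knockout and 835.7 in wild type. Of these 4, 3 were above 0, 2 of them by at least 2-fold, and 1 was below 0. Vil1 read 259.6 in the knockout and 20.6 in wild type, at least 2.30-fold higher. Cdh16 read 119.0 in the knockout and 27.2 in wild type, a bound of at least 0.08 on the log2 scale. Cubn, a receptor of kidney tubule, gut and yolk sac and most of the knockout sum, read 3765 in the knockout and 60.3 in wild type, at least 33.4-fold higher. Fabp2, a fatty acid binding protein of gut and most of the wild-type sum, read 444.0 in the knockout and 727.6 in wild type, a log2 difference of -0.71. The part of these genes in the Fbp1 and Fbp2 values was not tested. The exit steps, which release free glucose in the endoplasmic reticulum, were represented by Slc37a4, the glucose-6-phosphate transporter. It was 1.81-fold lower, at 681.3 in the knockout and 1232 in wild type. The catalytic subunit G6pc was below the floor, at 6.66 in the knockout and 25.6 in wild type.

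Glycogen enzymes differed by less than 2-fold throughout. Liver glycogen synthase (Gys2) was 1.26-fold lower, at 1144 in the knockout and 1443 in wild type. The muscle form Gys1 was 1.58-fold higher, at 221.9 in the knockout and 140.8 in wild type, and its second probe set, at 114.5 in the knockout and 14.8 in wild type, barely crossed the floor. Phosphorylase, which breaks glycogen down, was nearly level in both its liver form (Pygl, 3181 in the knockout and 3496 in wild type) and its brain form (Pygb, 803.1 in the knockout and 917.2 in wild type). The branching enzyme Gbe1 was close to the floor, at 174.1 in the knockout and 158.3 in wild type.

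Sorted by the tissue a form is known from, most liver forms were lower and most other forms higher. The classes were chosen with earlier results of these data known, so these counts are a description and not independent support. Of 10 measured liver forms (Slc2a2, Gckr, Khk, Pfkl, Pklr, Pcx, Fbp1, Slc37a4, Gys2 and Pygl), 9 were below 0 and 2 at least 2-fold lower, with a median of -0.46 and a range of -3.07 to 0.10. Gckr, Khk, Pcx and Slc37a4 were counted in this class although none was paired with a form of another tissue. Of 17 measured forms characteristic of other tissues, 14 were above 0, with 4 past 2-fold on that side and 1 past it on the lower side, and the median was 0.46. Over all measured genes, 46.2% were below 0 and 53.8% above, and 2.13% were at least 2-fold lower and 3.27% at least 2-fold higher. Within isozyme pairs, the form of other tissues had the higher log2 difference in Fbp2 over Fbp1, Pfkp over Pfkl, Pkm over Pklr, Slc2a1 and Slc2a3 over Slc2a2, and Gys1 over Gys2 (0.99 on the log2 scale), but not in Pygb and Pygl (-0.06) or Pfkm and Pfkl (-0.04). The remaining 12 measured members were not assigned to either side, among them Ldha (-0.05) and Pfkfb2 (0.17), though Pfkfb2 is named above as the heart form.

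**Figure D4:**
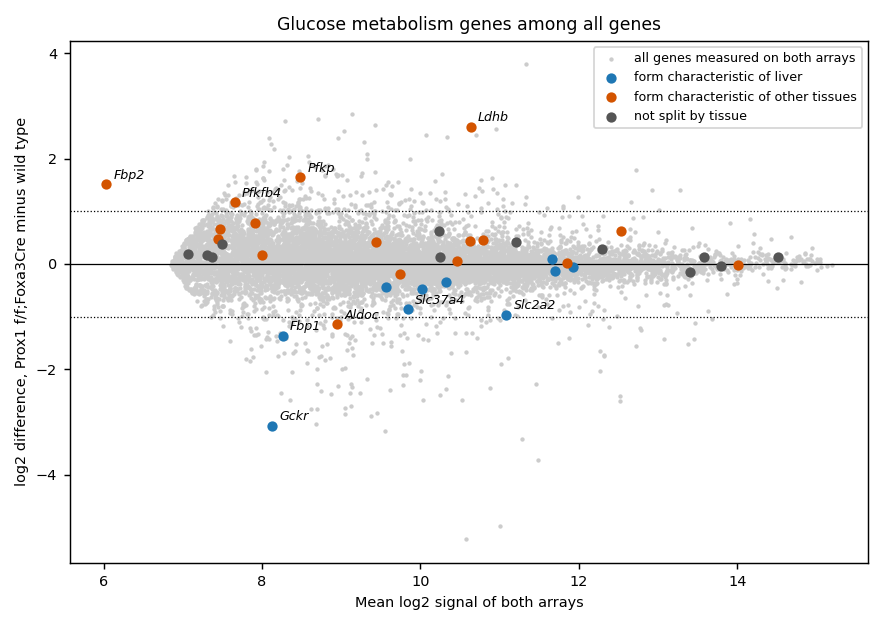
The log2 difference, knockout minus wild type, against the mean log2 signal of both arrays for each gene measured on both arrays, together with Gckr and Fbp2, which were above the floor on 1 array, with members coloured by the tissue their form is known from and dotted lines at 2-fold. Points for Gckr and Fbp2 are bounds, and the bright members Gapdh, Tpi1, Ldha and Slc2a1, on the right, lie near 0.

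Most liver forms and most hepatocyte markers were lower in the knockout. Of 12 measured hepatocyte markers, 11 were below 0 and 6 past 2-fold, and their median was -1.02. Their summed signal was 167311 in the knockout and 224823 in wild type. The bright markers Alb, Afp and Ttr were nearly level, with log2 differences of 0.03, -0.05 and -0.05. Over all measured genes, 46.2% were below 0 and 53.8% above, with 2.13% lower and 3.27% higher by 2-fold or more. Erythroid markers had a median of -0.05 over 8 genes, and their summed signal was 115510 in the knockout and 121829 in wild type. Endothelial markers were all above 0, with a median of 0.40 over 10 genes and summed signals of 5179 in the knockout and 4273 in wild type. All 6 measured cholangiocyte markers were above 0 and 3 past 2-fold, with summed signals of 3504 in the knockout and 1437 in wild type. For 5 of them the wild type was below the floor, so these are bounds, with Krt7 at 0.01 and Sox9 at 0.18. The exception, Cdh1, read 1294 in the knockout and 1120 in wild type, most of the wild-type sum. The biliary factor gene Onecut1 read 66.6 in the knockout and 77.7 in wild type, under the floor. No marker of these lists read 0. The part of cell composition in the isozyme differences was not tested.

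A count of 9 among 39 members lay outside the middle 95% of genes of like signal, against 5.90% of all measured genes. They were the 7 genes past 2-fold together with Slc2a2 and Aldoa. At the other extreme, 16 members differed by less than 0.25 on the log2 scale. Where a member had several measured probe sets, all of them agreed in direction for 10 of 18 genes, Ldhb and Pfkp among them. The other 8 were Slc2a3, Pfkl, Tpi1, Pgk1, Pdk1, Pfkfb2, Pfkfb3 and Pcx, none of which was 2-fold apart. Of the 7 genes past 2-fold, 5 rest on 1 measured probe set.

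Genes of adjoining pathways that are not members were mostly level. Among 6 measured other glycolytic genes, 0 were 2-fold apart, and the farthest were the triokinase gene Tkfc (1.55-fold higher) and the galactose mutarotase gene Galm (1.32-fold lower). Among 11 other genes of gluconeogenesis, 0 were 2-fold apart, with the alanine transaminase Gpt2 1.69-fold higher and the widely expressed glucose-6-phosphatase G6pc3 1.60-fold higher, at 418.4 in the knockout and 261.5 in wild type. Of 19 other glycogen genes, 1 was at least 2-fold higher. This was Ppp1r3b, which targets protein phosphatase 1 to liver glycogen, at 255.4 in the knockout and 96.2 in wild type, at least 2.27-fold higher. Ugp2, which makes UDP-glucose, was 1.87-fold higher, at 5785 in the knockout and 3089 in wild type, and all 5 of its probe sets were higher, by at least 0.51 on the log2 scale.

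Pyruvate and lactate handling outside the set showed 1 gene past 2-fold. Slc16a7 (MCT2), a high-affinity monocarboxylate transporter, was 2.26-fold lower, at 251.8 in the knockout and 570.2 in wild type. The erythroid and ubiquitous transporter Slc16a1 (MCT1) was 1.15-fold lower, while Emb and Slc16a3, of the same list, were 1.47-fold and 1.37-fold higher. The pyruvate dehydrogenase list had a median of -0.01 over 9 genes, with the E2 subunit Dlat 1.45-fold higher and the mitochondrial pyruvate carrier Mpc1 1.31-fold lower. The pentose phosphate list had a median of 0.00 over 7 genes, with Pgd, 6-phosphogluconate dehydrogenase, 1.56-fold higher and all 4 of its probe sets above 0. The galactose and polyol list had 2 measured genes, the uridylyltransferase Galt (a log2 difference of -0.57) and the aldo-keto reductase Akr1b8 (1.86-fold higher).

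Known regulators of these pathways included 3 of 20 measured genes that were lower by 2-fold or more and 0 that were higher by that much. Over all measured genes, 2.13% were lower and 3.27% higher by that much. The median of the regulators was 0.05. The carbohydrate response factor ChREBP (Mlxipl), which activates Pklr and lipogenic genes when glucose is high, was 2.58-fold lower, at 294.3 in the knockout and 758.5 in wild type. The glucagon receptor (Gcgr) was at least 2.57-fold lower, at 102.3 in the knockout and 289.4 in wild type, and Cebpa was 2.03-fold lower. Foxa2 was 1.77-fold higher on its 1 probe set.

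Targets of hypoxia-inducible factor, which drives Slc2a1, Ldha, Pgk1 and Pdk1 in low oxygen, had a median of 0.29 over 12 measured genes, 10 of them above 0 and 1 past 2-fold. Over all measured genes, 53.8% were above 0 and 3.27% at least 2-fold higher. Egln3, an oxygen-sensing prolyl hydroxylase, read 286.8 in the knockout and 133.4 in wild type, 2.15-fold higher. Ankrd37 was at least 1.53-fold higher and Hmox1 1.42-fold higher, while Vegfa, 1 of the 2 below 0, was 1.15-fold lower. The member genes Slc2a1, Ldha, Pgk1 and Pdk1 had log2 differences of -0.01, -0.05, -0.15 and 0.42 on their brightest probe sets, and the other Pgk1 probe sets were at 0.14 and 0.95. Pfkfb4, named above as a form of hypoxic cells, was at 1.17. The part of hypoxia-inducible factor in the member values was not tested.

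**Figure D5:**
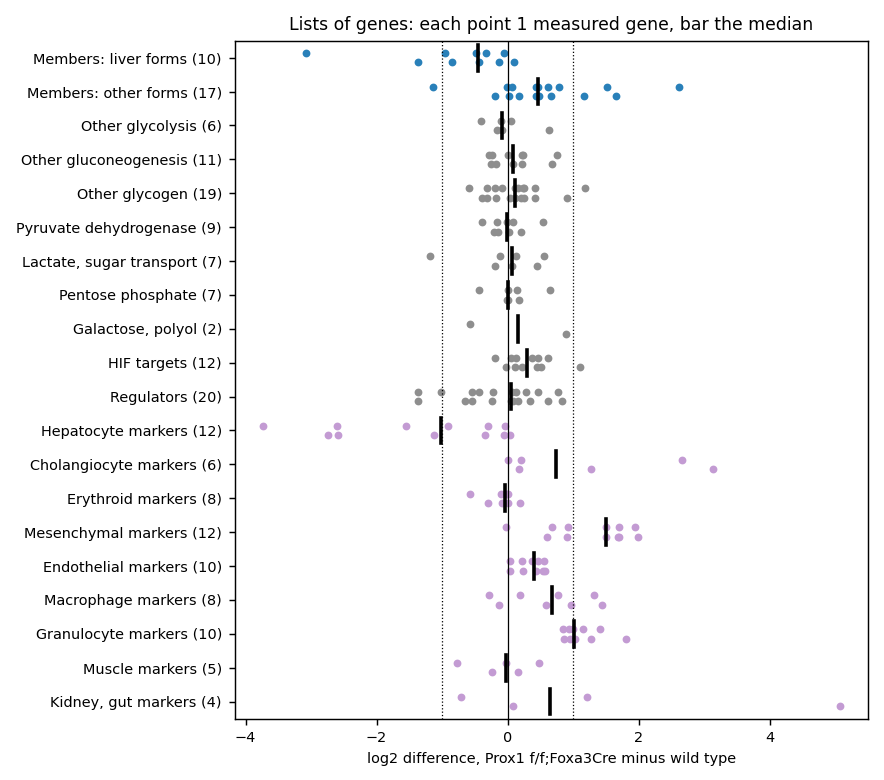
The log2 difference, knockout minus wild type, of each measured gene by list, with the number of genes in brackets, a bar at the list's median and dotted lines at 2-fold. Liver forms have a median of -0.46, with Pfkl above 0. Other forms have a median of 0.46, with Aldoc, Pygb and Slc2a1 below 0. Hepatocyte markers have a median of -1.02, and 7 of 12 mesenchymal markers lie beyond 2-fold on the right.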

How the data were processed

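One array per genotype was measured in whole embryonic liver. What the authors deposited is a linear intensity per probe set, made with MAS5 per the submitters' processing notes, which name no version. The 2% trimmed mean was 500.0 on both arrays, so the values were used as deposited. Of 45101 probe sets, 34958 carried exactly 1 gene symbol in the platform annotation, 13 of them control probe sets. The control probe sets were kept, and 7 of them name Gapdh or Pcx. When gene identifiers were looked up in RefSeq (GRCm38.p6), 0 symbols changed. Signals below the 50th percentile were raised to it, log2 differences were taken on the brightest probe set by mean log2 signal, and genes were counted at 2-fold. No test was possible with 1 array per genotype, and the number of arrays limits the precision.

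All members are named. Of the 9 lists of related genes, every gene past 2-fold is named. Some others are named too, not always those with the largest difference. The 9 marker lists are given by counts and sums. Members, lists and isozyme classes were chosen with earlier results of these data known. Values were computed with pandas 2.3.3 and numpy 2.4.6 under Python 3.11.15, lowess came from statsmodels 0.14.6, figures from matplotlib 3.10.9, and the calculation was tested on simulated data. Alternatives varied the floor, probe set choice, scaling and fold.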

Additional observations from a re-analysis of the deposited data

How the results depend on the processing

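No paired analysis was possible because each genotype has 1 array, and for the same reason leaving out a replicate was not run. The 4 higher and 3 lower members were counted again under 11 alternatives. The number higher was 2 with the floor at the 60th percentile, where Fbp2 (a bound of 0.76) and Pfkfb4 fell short. The Fbp2 difference was 2.87 with the floor at the 30th percentile, 2.55 with a pseudocount of 50 and 4.59 with no floor, each above that of Ldhb (2.61, 2.52 and 2.61). At 3-fold the counts were 2 higher and 1 lower, and at 1.5-fold 8 higher and 5 lower, against 0.869% and 0.895% of all genes at 3-fold and 9.87% and 5.21% at 1.5-fold. With no floor and no filter the counts stayed at 4 and 3 while 13.0% and 8.08% of all genes passed 2-fold. The median of the other forms was 0.34 when a gene was the median of its probe sets. With probe sets of the suffixes _x_at, _s_at and _a_at left out, 31 members had a value, 3 higher and 2 lower, because Ldhb and Aldoc had no other measured probe set. Pfkfb4 also missed 2-fold with a pseudocount of 50. The other 37 of 39 members kept their side of the 2-fold mark in each alternative that measured them, and no member past 2-fold changed sign. The signs of Gbe1, Hk1, Pfkl, Pgk1 and Slc2a3 changed in at least 1 alternative. Dim genes near the floor, such as the Pfkfb genes, Pdk4 and Gbe1, are limited by signal over background.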

Other observations

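Neighbours of other members past 2-fold were looked up in the RefSeq gene order after the members' values were seen. Beside Pfkfb4 on chromosome 9, Shisa5 was 1.82-fold higher, at 2977 in the knockout and 1637 in wild type, and its second probe set was 1.73-fold higher. Beside Pfkp on chromosome 13, Pitrm1 read 4572 in the knockout and 4500 in wild type, and Idi1, a gene of isoprenoid synthesis farther along, was 1.66-fold lower. Around Aldoc on chromosome 11, Spag5 and Pigs had log2 differences of 0.10 and 0.01. Around Gckr on chromosome 5, Fndc4 read 114.6 in the knockout and 168.4 in wild type, and Zfp512 had a log2 difference of 0.08.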
